A study of Homo sapiens with 12 samples.

Results

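Intron clusters near splice sites of protein-coding genes were examined, that is stretches of intron bound by the splicing regulator QKI (Quaking) in HEK293T cells. A cluster is a stretch of transcript with piled-up immunoprecipitated reads. Members were the clusters of the 2 endogenous QKI libraries, outside the mitochondrial chromosome, whose annotation by the authors gave most of their bases to the proximal intron class. They numbered 59839 of 616191 clusters, 36475 of 384347 (9.49%) in endogenous library 1 and 23364 of 231844 (10.1%) in library 2. Clusters of the tagged proteins carry no region annotation and entered by overlap with a member on the same strand: 10370 and 10851 clusters of the wild type protein, and 4446 and 4897 of the mutant.

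QKI is a KH-domain protein that binds pre-mRNA and regulates alternative splicing. Sites in the intron close to an exon are where splicing regulators are known to act on the choice of that exon. For QKI, binding downstream of an exon is known to favour inclusion and binding upstream of it to favour skipping.

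The assay was enhanced crosslinking and immunoprecipitation (eCLIP): protein is crosslinked to RNA by ultraviolet light and pulled down, and the RNA it holds is sequenced, as is an input of matching size. HEK293T is an established human embryonic kidney line. Unmodified cells were used with anti-QKI antibody (endogenous), and cells transiently transfected with 10 µg of plasmid and cultured for 72 hours with anti-MYC antibody (wild type myc-QKI-5, or myc-QKI-5 with substitutions K120A and R124A, numbered by residue). All cells were crosslinked at 254 nm with 400 mJ/cm2, and each of the 3 groups had 2 immunoprecipitation libraries and their inputs.

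Antibody and transfection both differ between the endogenous and tagged groups, so their parts cannot be told apart. The transfected cells also carry their own QKI. The amounts of tagged protein were not analysed here. The series' design note names differentiating human embryonic stem cells instead, and the sample labels, which name the kidney line, were followed. Whether paired libraries stem from independent cultures is unstated in the labels, so their spread may be technical. Clusters show bound RNA and not expression, so they do not test the labelled cell type. The number of reads behind each library is unknown here, and the 6 libraries held 226962 to 384347 clusters.

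The extent of the class could be read from the annotation itself, where clusters that cross a class border mark its position. The splice-site classes took the 100 intron bases next to an exon. The border between proximal and distal intron lay exactly 500 bases from the splice site at 387 of 400 borders beyond a 5′ splice site and at 276 of 286 before a 3′ splice site. Members are therefore intron clusters centred mostly 100 to 500 bases from an exon. Of the members, 30379 and 19444 lay in this class alone and 6096 and 3920 also touched another class. In 49 and 25 members the class tied with another for most bases. A further 5530 and 3648 clusters had some bases in the class but more in another and were not members.

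Enriched means here that the authors' deposited log2 fold over input and their −log10 p both reached 3. In endogenous library 1, 2268 of 36475 members were enriched (6.22%, exact binomial 95% interval 5.97 to 6.47%), against 4.22% of all its clusters. In library 2, 1720 of 23364 were enriched (7.36%, 7.03 to 7.70%), against 5.39% of all clusters. The mean over the libraries was 6.79% ± 0.809 (SD, n = 2). Both intervals lie above the level of all clusters in the same library, a level that includes the members. Intervals here cover counting error only. They treat clusters as independent, although some may belong to 1 bound stretch.

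Distal introns, over 500 bases from an exon, had 4.21% and 5.52% of clusters enriched, fewer than the members in both libraries. The difference was 2.00 and 1.84 percentage points (mean 1.92 ± 0.112, SD, n = 2). An exact two-sided sign-flip test over 2 libraries cannot give a p below 0.5, which is the value here. Among genes with clusters in both classes the difference was 1.83. Leaving out clusters that touch a second class gave 0.928, and requiring a log2 fold of 4 gave 1.07. Members that touched a second class were enriched in 11.2% and 12.8%, those in this class alone in 5.22% and 6.26%.

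Next to the exon, the 100 bases after a 5′ splice site had 5.67% and 5.82% of clusters enriched, and the 100 bases before a 3′ splice site 7.57% and 7.54%. The members' shares of 6.22% and 7.36% lay between these. Coding exons were far lower at 0.626% and 0.547%. The 3′ untranslated regions had 3.34% and 3.91%, and the 5′ untranslated regions 2.02% and 2.24%.

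**Figure D1:**
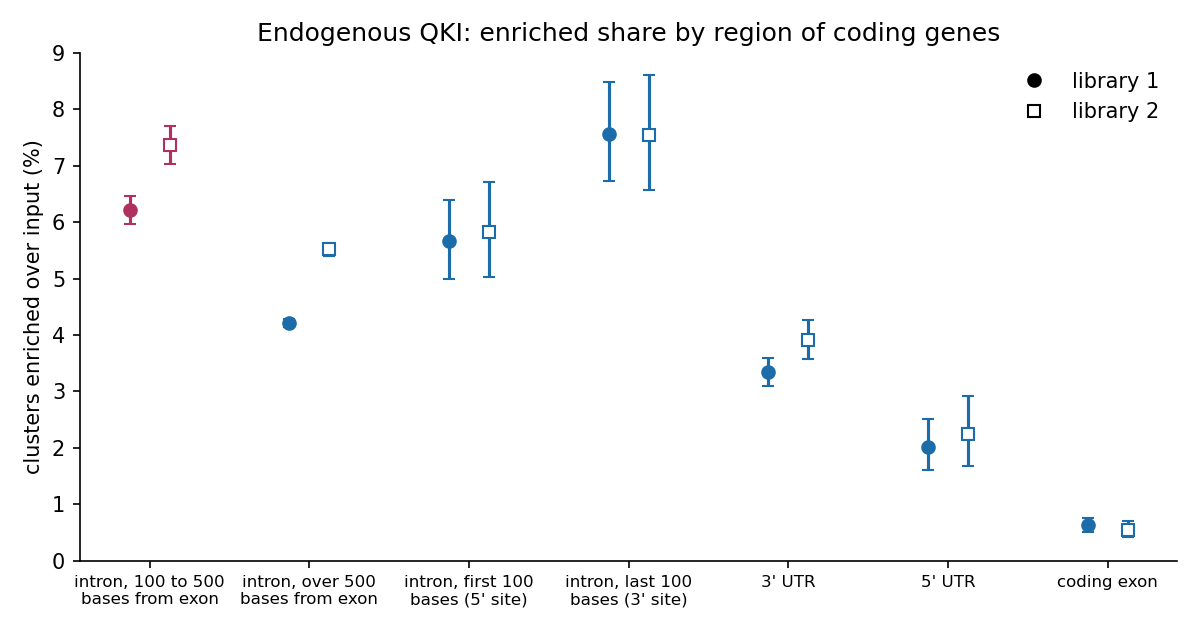
Share of endogenous clusters called enriched over input (vertical axis, percent) by region of coding genes (horizontal axis); filled circles are library 1, open squares library 2, and bars are exact binomial 95% intervals. The intron bases 100 to 500 from an exon (red) sit at 6.22% and 7.36%, above distal introns in both libraries and near the bases next to the splice sites.

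Cluster width differed along with enrichment. Members had a median width of 58 bases in both libraries, and enriched members 110 and 107.5 bases. In 5 width ranges per library, members exceeded distal introns in 9 of 10. The exception was clusters of up to 30 bases in library 2, with 0.607% of members and 0.612% of distal clusters enriched. For clusters over 120 bases wide the shares were 30.4% against 24.4% in library 1 and 34.7% against 32.1% in library 2. The larger share of members thus held at nearly every width.

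The libraries differed more in what lay below the threshold than in the calls. In library 1, 66.0% of members lay above input, and in library 2 89.0%. Of the 2268 enriched members of library 1, 1541 (67.9%) overlapped an enriched cluster of library 2, against 67% for enriched clusters of any region. Of the 1720 in library 2, 1381 (80.3%) overlapped an enriched cluster of library 1, against 77.5%. Agreement between libraries was thus near that of all regions.

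The side of the intron on which a member lies could be told where another cluster crosses the nearby exon border and so gives the splice site's position. This placement, chosen after the annotation was seen, covered 634 and 418 members downstream of a 5′ splice site and 700 and 435 upstream of a 3′ splice site. On the 5′ side, 71 of 634 (11.2%, 8.85 to 13.9%) and 52 of 418 (12.4%, 9.43 to 16.0%) were enriched. On the 3′ side, 110 of 700 (15.7%, 13.1 to 18.6%) and 74 of 435 (17.01%, 13.6 to 20.9%) were. The 3′ side was higher by 4.52 and 4.57 percentage points, yet the intervals of the sides overlap in each library. With sites read from all class borders the difference was 0.994 and 0.677 points (mean 0.836), so its size rests on which sites are used. Members left unplaced were enriched in 5.92% and 7.07%. Placement takes only introns whose exon border also holds a cluster.

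Along the intron, the enriched share of placed members was highest next to the splice-site class and lower toward 500 bases. Centres 100 to 150 bases from a 5′ splice site were enriched in 18.8% and 18.7%, and those 400 to 500 bases away in 5.80% and 11.4%. On the 3′ side the same ranges gave 22.9% and 22.3%, then 10.7% and 6.76%. Single ranges hold 69 to 179 clusters, and their order within the class differs between the libraries. Beyond the class, distal clusters 500 to 1000 bases from the 5′ splice site had 4.32% and 3.89%, and those before the 3′ splice site 9.90% and 12.8%. With sites from all class borders the highest share lay at 150 to 200 bases (17.8% and 16.8% on the 5′ side, 19.96% and 21.5% on the 3′ side) instead of at 100 to 150. In that set the range of 100 to 150 bases also holds members that gave their own site, so the profiles cover unlike members.

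**Figure D2:**
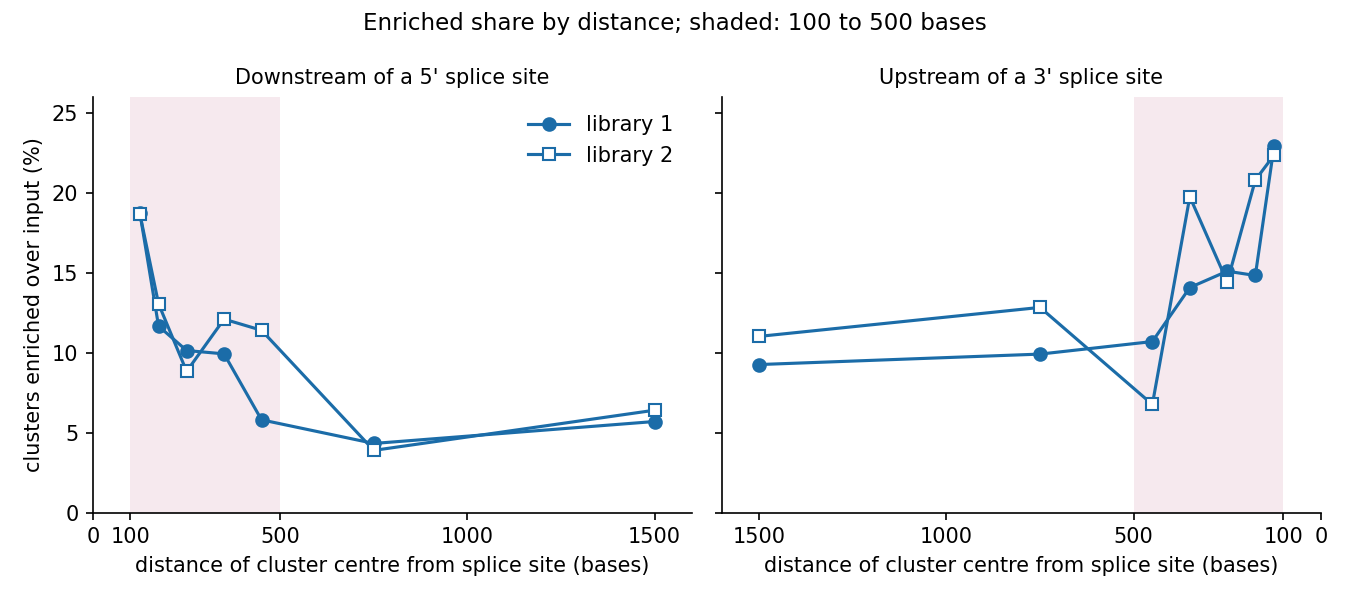
Share of endogenous clusters called enriched (vertical axis, percent) by distance of the cluster centre from the splice site (horizontal axis, bases), downstream of 5′ splice sites (left) and upstream of 3′ splice sites (right, running toward the exon); circles are library 1, squares library 2. The shaded range of 100 to 500 bases is the class described here, and its end nearest the exon is highest on both sides, at 18.8% and 18.7% and at 22.9% and 22.3%.

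Of the wild type clusters that overlap members, 639 of 10370 (6.16%) and 697 of 10851 (6.42%) were enriched, against 2.07% and 1.89% of all wild type clusters. Wild type clusters overlapping any other annotated endogenous cluster had 4.87% and 4.80%, a nearer comparison, since overlap with an endogenous cluster by itself goes along with enrichment. For the mutant, 3 of 4446 (0.0675%) and 49 of 4897 (1.00%) were enriched, against 0.0405% and 0.304% of all its clusters. Mutant clusters overlapping any other annotated endogenous cluster had 0.143% and 0.396%, so members lay below that nearer comparison in library 1 and above it in library 2.

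The tagged proteins were then compared at the 45577 loci that remain when overlapping endogenous members are merged, loci picked without use of the tagged libraries. Wild type QKI-5 was enriched at 616 (1.35%) in library 1, against 0.88% of all endogenous loci. In wild type library 2 it was enriched at 669 (1.47%), against 0.929%. The mutant was enriched at 3 (0.00658%) in library 1, against 0.00923%. In mutant library 2 it was enriched at 50 (0.110%), against 0.0489%. The wild type mean of 1.41% ± 0.0822 (SD, n = 2) was 24.2 times the mutant mean of 0.0581% ± 0.0729 (SD, n = 2), and the wild type libraries did not overlap the mutant ones.

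For the difference of 1.35 percentage points the exact permutation test (two-sided) gave 0.3333, the lowest p open to 2 libraries against 2. The ratio rests on the few mutant calls: leaving out mutant library 1 gave 12.9, and leaving out mutant library 2 gave 214. It also depended on the fold required, being 7.26 with a threshold of 2 and 181 with one of 4. Of the loci with any listed tagged cluster, 6.12% and 6.36% were enriched for wild type and 0.0678% and 1.02% for the mutant. The lists of the tagged proteins hold only clusters above input. At distal intron loci the wild type shares were 0.856% and 0.907% and the mutant shares 0.00270% and 0.0288%, all below those of the same libraries near splice sites.

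**Figure D3:**
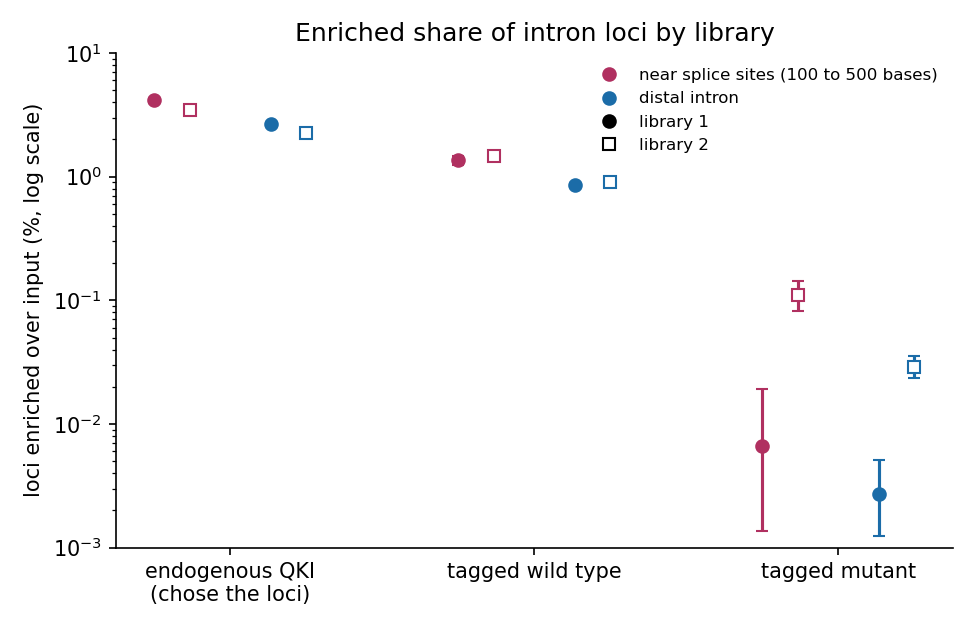
Share of merged endogenous loci called enriched (vertical axis, percent, log scale) for endogenous, tagged wild type and tagged mutant libraries (horizontal axis); red marks loci 100 to 500 bases from splice sites, blue marks distal introns, circles are library 1, squares library 2, and bars are exact binomial 95% intervals. Wild type lies at 1.35% and 1.47% near splice sites and the mutant at 0.00658% and 0.110%.

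The authors combined the 2 libraries of each group into a list of reproducible peaks. Of the 12409 endogenous reproducible peaks, 1733 (13.97%) lay in the proximal intron class, in 1085 named genes. Their median log2 fold for the pair was 4.13 and the highest 8.27. Above a log2 fold of 5 lay 320, and above 6 lay 96. Peaks in distal introns had a median of 4.08.

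At these 1733 peaks, wild type clusters were listed for 83.0% and 80.7% and mutant clusters for 8.19% and 8.31%. Among the listed, the median log2 fold was 2.63 and 2.57 in wild type (2.601 ± 0.0385, SD, n = 2) and 1.00 and 0.866 in the mutant (0.933 ± 0.0952, SD, n = 2). The wild type libraries did not overlap the mutant libraries, and the medians differed by 1.67, with a p of 0.3333 by the same exact permutation test. Wild type was enriched at 479 (27.6%) and 450 (25.97%), against 28.5% and 25.6% of endogenous reproducible peaks of all regions. The mutant was enriched at 0 of 1733 in either library, which allows a share of up to 0.173%, against 0.21% and 0.234% in all regions. At the 8574 peaks in distal introns the mutant was enriched at 6 (0.0700%) and 11 (0.128%), both within that limit. The absence of mutant calls therefore does not set the members apart from distal introns. For wild type these shares lay near those of all regions.

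A cluster was listed in all 4 tagged libraries at 25 of the 1733 peaks. Both wild type folds exceeded both mutant folds at 19 of them and the reverse held at 0, against 64.3% and 1.81% of such peaks in all regions. Of the 1733 peaks, 409 (23.6%, 21.6 to 25.7%) shared bases with a peak of the wild type list, against 24.3% in all regions, and 0 with one of the mutant list. Seen from the other list, 516 of 3671 wild type reproducible peaks (14.1%) lay on members, as did 3 of 55 in the mutant list.

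Of the 12 genes with the highest endogenous pair fold, 10 are described first. FAM120A, an RNA-binding scaffold protein, led at chr9:96313098-96313208 (hg19, plus strand), centred 178.5 bases from a 5′ splice site. Its log2 fold was 8.19 and 8.29 in the endogenous libraries and 5.48 and 4.56 in wild type, and no mutant cluster was listed. SMARCA1, an ISWI chromatin remodelling ATPase, had 7.17 and 7.16, then 6.22 and 4.63, and no mutant cluster (chrX:128630391-128630499, minus strand). In both genes the endogenous libraries stood above wild type, at peaks that were picked for their endogenous fold. The mutant was not seen above input at either.

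NASP, a histone chaperone and a reported QKI target, held its leading peak at chr1:46074224-46074286 (plus strand), 244.5 bases from a 5′ splice site. The endogenous folds there were 7.11 and 7.23 and the wild type folds 4.57 and 4.96. RBM28, a nucleolar protein of ribosome assembly, had endogenous folds of 7.18 and 6.47 at chr7:127980931-127980959 (minus strand). Wild type there reached 5.07 and 4.93 and the mutant 1.09 and 2.28. RBM28 is the 1 gene of these whose leading peak had a listed cluster in both mutant libraries.

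ALDH18A1, which makes a precursor of proline, had endogenous folds of 7.54 and 5.83, wild type folds of 2.73 and 3.39 and a mutant fold of 0.776 in library 1 alone, 107 bases from a 5′ splice site. BPTF, of the NURF remodelling complex, lay at 422 bases with 6.29 and 7.76 in endogenous and 3.58 and 2.62 in wild type. In both genes the wild type values lay on either side of the threshold of 3, from 2.62 to 3.58.

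On the 3′ side, DHX29, a helicase of translation initiation, had endogenous folds of 7.65 and 6.65 and wild type folds of 6.68 and 6.26, 102 bases before the 3′ splice site. ZSCAN30, a zinc finger protein, had 6.55 and 7.51 in endogenous and 5.18 and 4.65 in wild type at 144 bases. CANT1, a calcium-activated nucleotidase, had 7.29 and 6.56 in endogenous at 187 bases and no listed cluster in any tagged library. CANT1 was the only gene of these 10 whose leading peak lacked wild type in both libraries. CHD3, of the NuRD complex, was not placed and had endogenous folds of 7.81 and 6.61 and wild type folds of 4.06 and 3.96.

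Ranked by wild type pair fold, the leading peaks on members were in ABCC8, ACIN1, SHPRH, CANT1, PRKX, DHX29, NET1 and MAPK8. ABCC8, the sulfonylurea receptor of potassium channels, had wild type folds of 6.23 and 8.47 and endogenous folds of 6.56 and 6.99 (chr11:17450405-17450571, minus strand). ACIN1, a protein associated with the exon junction complex, had 6.76 and 7.17 in wild type, with endogenous at 4.99 and 6.52. SHPRH, a ubiquitin ligase of DNA repair, had 7.31 and 6.33 in wild type, with endogenous at 5.21 and 5.63. Both wild type values exceeded both endogenous values at ACIN1 and SHPRH, and also at NET1 and MAPK8, described below. This did not hold at ABCC8, CANT1, PRKX or DHX29. All these peaks were picked for their wild type fold.

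CANT1 carried a second site 175 bases downstream of a 5′ splice site, at chr17:77001183-77001374 (minus strand). Wild type reached 6.49 and 6.95 there and endogenous 6.61 and 6.85, while the site upstream of the 3′ splice site, at chr17:77001739-77001764, had no tagged cluster. The kinase PRKX had 6.40 and 6.33 in wild type, with endogenous at 6.43 and 6.75. NET1, a guanine nucleotide exchange factor, had 6.21 and 6.32 in wild type, with endogenous at 5.22 and 5.61. MAPK8, the kinase JNK1, had 6.62 and 6.09, with endogenous at 6.08 and 5.51. No mutant cluster was listed at any of these 8 peaks.

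**Figure D4:**
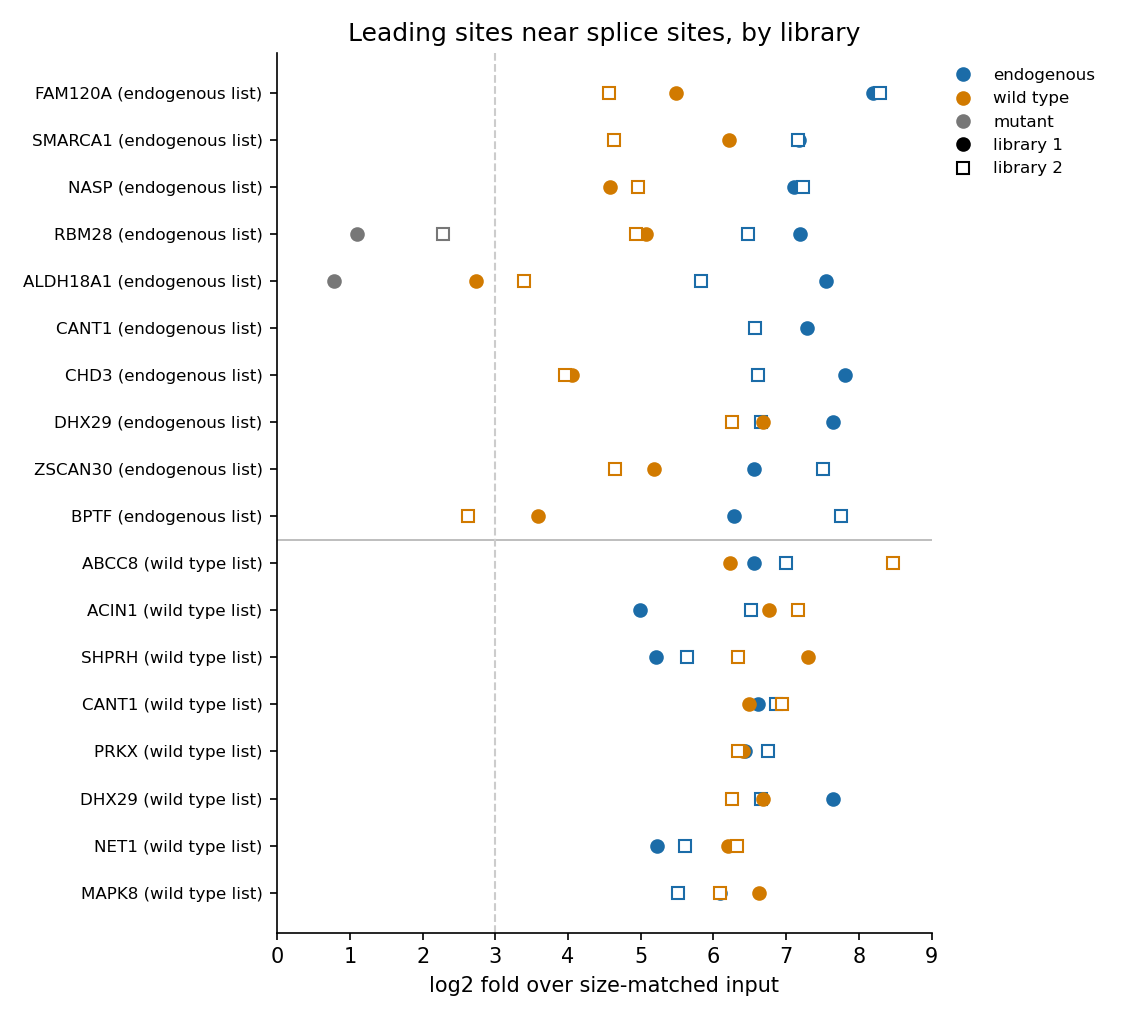
Log2 fold over size-matched input (horizontal axis) of each library at the leading peaks near splice sites, 1 per gene (vertical axis), ranked by endogenous fold above the line and by wild type fold below it; circles are library 1, squares library 2, a missing symbol is a cluster not listed, and the dashed line is the threshold of 3. Among the genes drawn, mutant symbols appear only at RBM28 and ALDH18A1, all below 3.

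Most genes had a single reproducible peak near a splice site: 731 of 1085 had 1, 212 had 2 and 142 had 3 or more. NASP had the most, 12 of its 19 reproducible peaks, which merge into 6 separate stretches. DNM2 (dynamin, of endocytosis), GLUD1 (glutamate dehydrogenase) and RBM28 had 8 each, which merge into 3, 4 and 3 stretches. DYNC2H1 (a dynein of cilia) and RALGAPA1 (which acts on Ral GTPases) had 7 each, which merge into 6 and 5. By stretches DYNC2H1 thus equals NASP and stands above the genes with 8 peaks. DNAH14 and EPB41L2 had 6 peaks, as did at least 6 further genes. Over the whole class, the 1733 peaks merge into 1472 stretches. In 368 genes no reproducible peak lay in another region, while 644 genes had distal intron peaks too.

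Wild type folds varied widely among the leading peaks of these genes. GLUD1 reached 5.76 and 7.70 in endogenous and 6.804 and 4.33 in wild type at its leading peak. RALGAPA1 had 6.40 and 5.72 in endogenous and 4.40 and 5.04 in wild type, 207.5 bases from a 5′ splice site. DNM2 had 6.54 and 4.63 in endogenous and no listed tagged cluster. DNAH14 (an axonemal dynein) and EPB41L2 (a membrane skeleton protein) had wild type folds of 3.39 and 4.13, and 3.18 and 4.95. DYNC2H1 was weaker, at 3.83 and 5.77 in endogenous and 1.41 and 3.02 in wild type.

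Wild type and mutant were also compared region by region with limma, over the 5481 merged regions with a cluster in all 4 tagged libraries, of which 546 overlapped members. This leaves out nearly all member regions, 546 of 19404 being testable, because the mutant is seldom listed. Taking an adjusted p (Benjamini-Hochberg over all 5481) up to 0.05, 3 of the 546 member regions were higher in wild type. Of all 5481 regions 36 were higher (0.657%), so members were not called more often. Lower in wild type were 0 member regions, against 1 of all regions (0.0182%). At an unadjusted p under 0.05, 21 were higher and 51 lower (3.85% and 9.34% of members, against 5.11% and 7.26% of all regions). When each library was centred on its median, 32 were higher and 27 lower (5.86% and 4.95%, against 8.01% and 3.70%). The median difference was −0.36 over member regions and −0.26 over all regions, and −0.09 and 0.01 after centring.

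NASP was the first of the 3, at chr1:46074071-46074497. The folds were 4.57 and 4.96 in wild type and 1.47 and 0.757 in the mutant, a difference of 3.66 (SE 0.513, limma adjusted p = 0.0253). RBM28, at chr7:127980861-127981011, had 5.07 and 4.93 against 1.09 and 2.28, a difference of 3.32 (SE 0.557, limma adjusted p = 0.0480). GART, an enzyme of purine synthesis, had 3.38 and 3.14 against 0.0215 and 0.198 at chr21:34902765-34902959 (minus strand), a difference of 3.15 (SE 0.478, limma adjusted p = 0.0325). In all 3 the wild type libraries lay above the mutant libraries without overlap, and the endogenous folds were higher still, 4.73 and 5.00 at GART.

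With 1 mutant library left out, that group has a single library, which is assumed to vary like the wild type. Without mutant library 1 limma called 0 member regions (smallest adjusted p 0.0895), with 19 higher and 95 lower at an unadjusted p under 0.05, 3.48% and 17.4% of members against 4.83% and 14.9% of all regions. Without mutant library 2 it also called 0 (smallest adjusted p 0.0935), with 23 higher and 36 lower, 4.21% and 6.59% against 4.93% and 7.68%. The differences themselves were 4.01 and 3.30 in NASP, 3.06 and 3.24 in GART and 2.73 and 3.91 in RBM28 with mutant library 1 or 2 left out, in that order. Without wild type library 1 limma called 7 and without wild type library 2 it called 5, each time including the 3.

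The mutant was enriched at 53 merged member loci, 3 in library 1 and 50 in library 2, and at 0 in both. None of the 53 was enriched in a wild type or endogenous library. In library 2, 36 of the 50 had a −log10 p under 5. Mutant library 2 also had more enriched clusters over all regions, 0.304% against 0.0405% in library 1. At all merged endogenous loci it had 233 against 44 in library 1, a smaller ratio than the 50 against 3 at members. The part of the library in this count was not tested. The wild type excess at loci was 1.40 percentage points without mutant library 2 and 1.30 without library 1.

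Ranked by mean fold over the mutant libraries that list them, the leading mutant loci were in REXO1, DLG5, USP4, RBM20, GMEB1 and GFI1. For each of the 6 that mean is the value of mutant library 2 alone. Of the 53 loci, 22 were listed in both mutant libraries, and none of the 6 is among these. REXO1, an exonuclease-like protein, had a fold of 4.19 in mutant library 2 and no cluster in library 1. USP4, a deubiquitinase, had 4.01 in mutant library 2, with wild type folds of 0.149 and 1.25. RBM20, a splicing regulator of heart muscle transcripts, had 3.91 in mutant library 2 and an endogenous fold of −0.33 in library 1. All 6 lacked a cluster in mutant library 1, and the 5 of them listed in endogenous library 1 lay below input there.

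Gene lists by function were then set beside all 8990 named genes with a member cluster, of which 1085 (12.1%) had a reproducible peak near a splice site. Genes with more clusters have more chances of such a peak, and the median gene had 4 member clusters. Among splicing regulators, 8 of 32 had one, with a median of 9 member clusters and a median leading fold of 3.38 against 4.22 for all genes. MBNL2, a muscleblind protein, reached 6.03 and 5.96 in endogenous and 1.67 and 2.50 in wild type, 397.5 bases from a 5′ splice site. MBNL1 had 4.45 and 3.56 in endogenous and 2.11 and 1.61 in wild type. RBM39, related to U2AF, had 3.60 and 3.75, and HNRNPH1, of the hnRNP H family, 2.94 and 3.70. The list's enriched cluster shares were 11.8% and 10.2%, against 6.20% and 7.33% for all named genes, while its median leading fold was the lower. QKI's own transcript, named after its value was seen, held 1 reproducible peak with a pair fold of 3.08.

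Of core spliceosome and tri-snRNP genes, 6 of 33 had a reproducible peak, with a median of 6 member clusters, a median leading fold of 3.98 and enriched cluster shares of 8.47% and 12%. U2AF2, which binds the polypyrimidine tract, had 5.14 and 6.33 in endogenous and 3.66 and 4.76 in wild type. SNRNP200, the helicase that unwinds U4 from U6, had 4.06 and 4.02 in endogenous and 3.66 and 2.83 in wild type. DHX15, a helicase of spliceosome disassembly, had 3.81 and 3.81, then 3.14 and 3.02. DHX16, a helicase of spliceosome activation, had 3.93 and 4.02, then 0.412 and 1.76. U2AF2 stood apart from the rest of the list in the endogenous libraries.

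Among genes listed as known QKI targets, 9 of 27 had a reproducible peak, with a median of 9 member clusters and a median leading fold of 4.72. Of this list's clusters, 19.0% and 20.9% were enriched. The list was drawn up from prior knowledge of QKI and with earlier results of these data known, so it is no independent evidence. NASP, described above, is among them and holds 12 of the list's 28 reproducible peaks. It also holds 15 of the list's 184 and 14 of its 129 member clusters, and the pooled shares were not computed without this gene. TPM3, a tropomyosin, had 5.94 and 5.09 in endogenous, 158 bases before a 3′ splice site, and no tagged cluster. CLTC, the clathrin heavy chain, had 4.72 and 5.40 in endogenous and 2.02 in wild type library 2 alone.

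Of genes of the actin cytoskeleton and adhesion, 10 of 31 had a reproducible peak, with a median of 11 member clusters, a median leading fold of 5.03 and enriched cluster shares of 18.8% and 11.98%. PTK2, the focal adhesion kinase, had 7.02 and 5.34 in endogenous and 6.26 and 5.05 in wild type. MICAL3, which oxidises actin, had 5.62 and 6.60 in endogenous and 0.190 in wild type library 1 alone. CTNNA1, which ties cadherins to actin, had 6.21 and 4.71, then 3.29 and 4.39. PTK2 and MICAL3 were alike in endogenous and unlike in wild type.

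Chromatin regulators had 12 of 34, with a median of 12 member clusters and a median leading fold of 4.33, and their enriched cluster shares of 7.03% and 7.5% were close to those of all genes. The acetyltransferase CREBBP had 6.41 and 6.62 in endogenous and 3.27 and 3.93 in wild type. The methyltransferase KMT2A had 4.73 and 5.50, then 4.37 and 4.95. Its relative KMT2C had 4.68 and 5.35 in endogenous but 0.329 and 0.955 in wild type and 1.19 in mutant library 1. ASXL1, of the Polycomb deubiquitinase, had 4.70 and 5.12, then 2.50 and 1.90. The list thus ranged from wild type values near endogenous to values near input.

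Of axon guidance genes, 3 of 24 had a reproducible peak, and 10.7% and 12.99% of the list's clusters were enriched. SLIT2, a guidance ligand, had 6 near splice sites beside 39 in distal introns, and its leading one had 4.197 and 4.41 in endogenous and no tagged cluster. Its receptor ROBO1 had 3.67 and 4.37 in endogenous and 2.50 and 2.53 in wild type, and the ephrin EFNA5 5.69 and 3.62 in endogenous. Of cardiac sarcomere and calcium handling genes, 0 of 11 had one, which allows up to 27.3%. Neuronal and cardiomyocyte markers were listed as signs of cells foreign to this line. Of each list, of 10 and 8 genes, 2 had member clusters, with medians of 6.5 and 13.5. A reproducible peak was seen in 0 of 2 each time, and so few genes cannot show an absence.

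**Figure D5:**
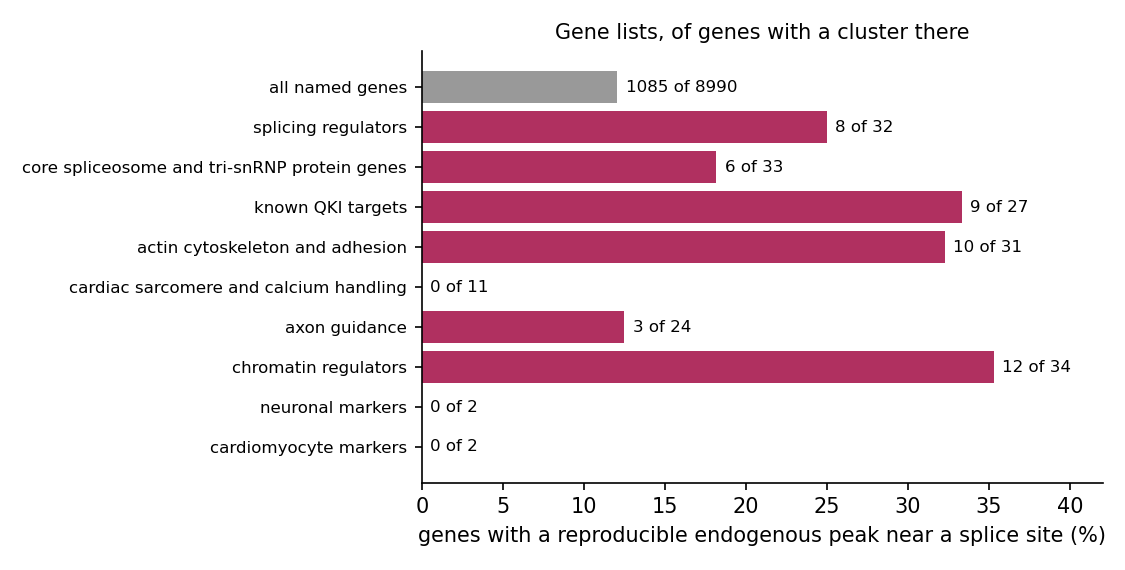
Share of genes with a reproducible endogenous peak near a splice site (horizontal axis, percent of genes with any cluster there) for each gene list (vertical axis), with the counts printed beside each bar. All named genes lie at 12.1%, and the lists differ in the number of clusters per gene, with medians from 6 to 13.5 against 4.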

How the data were processed

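The submitters' processing notes name build hg19 and the tools SAMtools, STAR, cutadapt and UMI-tools. Tool versions and the peak-calling program were not given in the sources used here. The authors deposited for each cluster a log2 fold over its size-matched input and a −log10 p, capped at 400 per the values. The deposited tagged files also carry a browser score and list only clusters with a fold above 0. Inputs entered only through these values.

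Libraries were grouped by title. Overlap meant at least 1 shared base on the same strand. Loci are merged endogenous clusters. A locus or peak counted as enriched if any overlapping cluster passed both thresholds. Its fold was that of the overlapping cluster of highest −log10 p. Regions merge the clusters of the 4 tagged libraries and were fitted with limma 3.58.1 (R 4.3.3, lmFit and eBayes, Benjamini-Hochberg over all 5481), a step tested on simulated data. Overlaps were checked against bedtools 2.31.1. Intervals are exact Clopper-Pearson at 95%, for counting error only, and a count of 0 is limited by 3 counts. Library numbers 1 and 2 are shared by the groups, but same-numbered wild type and mutant libraries did not deviate together (correlation −0.0377), so no block was used. Splice-site positions came from the annotation's class borders, an addition after seeing the data.

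Genes named were the 12 leading endogenous and 8 leading wild type peaks, the 8 genes with most peaks (ties at 6 taken alphabetically), regions past limma's threshold, 6 mutant loci, and up to 4 genes per list. Some genes that this rule selects are not reported here. Members and lists were chosen with earlier results of these data known. Alternatives were other fold and p thresholds, overlap of 50%, denominators, single-class clusters, missing values at 0, centring, a filter, 6 libraries in 1 fit, and each library left out. No motif search and no sequence is given, since no genome of this build was used here.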

Additional observations from a re-analysis of the deposited data

How the results depend on the processing

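Of the 6 main values, those that are differences kept their sign in each single alternative. The enriched share and the count of called regions cannot turn negative. Of the 47 alternative values for the 6, 21 moved. The other 26 kept direction and side of the threshold or stayed within the spread, though not always their size. The members' enriched share of 6.79% moved to 8.23% with the log2 fold threshold at 2, 3.57% with it at 4, 4.64% with the −log10 p threshold at 5, 8.85% among clusters above input, 5.74% among clusters of a single class, and 8.20% at widths of 60 to 120 bases (added after seeing the data). It ranged from 6.22 to 7.36% with 1 library left out. The excess over distal introns of 1.92 points moved to 2.34, 1.07, 1.46, 2.49 and 0.928 under the first 5 of these, and ranged from 1.84 to 2.00 with 1 library left out. The excess of the 3′ over the 5′ side, 4.54 points, moved to 0.836 with sites from all class borders and to 2.57 with the fold threshold at 4, both added after seeing the data, and ranged from 4.52 to 4.57 with 1 library left out. With both changes together the 5′ side was the higher in library 1 (6.08% against 5.71%) and the lower in library 2 (6.77% against 7.68%).

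Wild type minus mutant kept its sign at loci (1.29 to 1.41 points with 1 library left out) and at reproducible peaks (1.60 to 1.73 log2, 2.23 with missing clusters at 0), but 2 libraries against 2 cannot pass 0.05. At loci with a cluster in both endogenous libraries, added after seeing the data, it was 4.91 points, while it was 0.594 with the fold threshold at 4 and 0.869 with the −log10 p threshold at 5. With the replicate number as a block the difference at loci was 1.35 points and limma called 4 member regions, so the pairing changed no call by over 1.5 times. The count of 3 regions ranged from 0 to 7 with 1 library left out. It moved to 6 with all 6 libraries in 1 fit, 6 after centring, 6 with the filter on −log10 p, and 0 with missing clusters at 0, where 3627 member regions were higher and 542 lower at an unadjusted p under 0.05 (18.7% and 2.79%, against 4.74% and 1.74% of all regions). There the median member difference turned from −0.36 to 0.45, and the split of unadjusted calls turned with it, as it did after centring. The cause was not tested. Not run were the planned motif shares (all windows and thresholds) and the side shares from a gene annotation, both of which need a genome or annotation of this build. Depth is unknown, so clusters with few reads cannot be told from weak binding.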

Other observations

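Proximal introns of noncoding genes, which are no members, had 108 of 2562 clusters enriched (4.22%) in endogenous library 1 and 76 of 1511 (5.03%) in library 2, below the 6.22% and 7.36% of coding genes in each library. The difference was not tested. Of the 12 mutant loci whose side could be read from any class border, 11 lay downstream of a 5′ splice site and 1 upstream of a 3′ splice site, where the placed loci of the class number 5340 and 4289. All 11 were enriched in mutant library 2 alone, and the 1 in mutant library 1 alone. Side and library thus cannot be told apart here, and the 5′ count rests on 1 library.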
